A study of Xenopus laevis with 20 samples.

Results

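The comparison described here asks what the zinc finger factor Zic1 adds to frog ectoderm in which the paired box factor Pax3 is already active. It sets 5 animal caps injected with Pax3GR and Zic1GR together (the combination caps) against 5 caps injected with Pax3GR only, 10 of the 20 arrays in the series. All probe sets other than the array's control probe sets entered if they reached log2 4, taken here as background, on at least 5 of the 20 arrays. That kept 20519 of 32539 probe sets. Animal caps are pieces of prospective ectoderm from the Xenopus laevis blastula. The embryos had received mRNA as 2-cell embryos, the caps were dissected at stage 9, and every cap of every group then spent 8 h in dexamethasone. The hormone sets free transcription factors that carry the hormone-binding domain of the glucocorticoid receptor (GR) as a fusion. The other groups, 5 caps each, carried Zic1GR alone or GR alone, the negative control. Each array held amplified cDNA from 100 ng of total RNA of 1 explant. The labels number the arrays of each group as biological replicates 1 to 5, without saying whether those of one number came from one clutch. The p-values therefore measure the spread between these explants. In a whole explant, fewer cells of a type and less RNA per cell cannot be told apart.

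Pax3 and Zic1 are transcription factors of the neural plate border, the strip of ectoderm between neural plate and epidermis. The border gives rise to the neural crest, a migratory population that forms pigment cells, peripheral neurons and facial skeleton, to the cranial placodes of the sense organs and, in frogs, to the hatching gland. Explant work in Xenopus is known for the observation that hatching gland forms under Pax3 alone, placodes under Zic1 alone and neural crest under both. Xenopus laevis is allotetraploid, and most genes exist as an L and an S copy, which the gene symbols carry as a suffix.

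The explants of a group were not alike. Between 18949 and 19239 probe sets reached log2 4 on each of the 20 arrays. Pax3GR replicate 1 stood apart, with a mean correlation with its group of 0.881 against 0.931 to 0.940 for the other 4. Combination replicate 4 had the lowest such value of its group, 0.922. On the first principal component of the 10 arrays, which held 41.7% of the variance, Pax3GR replicates 3, 4 and 5 lay between 98 and 116.4, the other 2 Pax3GR arrays at -77.2 and -6.1, combination replicate 4 at 27.6, and the other 4 combination arrays between -75.7 and -54. The median SD within a group over the probe sets was 0.382 for Pax3GR and 0.408 for the combination, against 0.260 for GR and 0.336 for Zic1GR.

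The probe sets of the injected genes did not pass the test between the groups. The Pax3GR caps had zic1.S at log2 13.98 ± 0.11 (SD, n = 5) and the combination caps at 13.78 ± 0.17, against 12.56 with Zic1GR alone and 7.69 in GR caps (adjusted p = 0.730 for the first pair, limma). For pax3.S, one probe set stood at 12.98 ± 0.07 and 12.65 ± 0.09 (adjusted p = 0.676) and the other at 13.27 ± 0.04 and 12.93 ± 0.08 (adjusted p = 0.596). On both, all 5 combination caps were lower than any Pax3GR cap, and the test uses a spread pooled over all 4 groups. With none of the 9 pax3 and zic1 probe sets called (limma), they do not check which caps also received Zic1GR. The sources used here do not say which probe sets match the injected messages.

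Adding Zic1GR to Pax3GR moved a limited part of the transcriptome, in both directions. Of the 20519 probe sets, 2106 passed the test (10.3%; limma, all 20 arrays, Benjamini-Hochberg adjusted p under 0.05). Of these 878 (4.28%) rose and 1228 (5.98%) fell, with 515 rises (2.51%) and 815 falls (3.97%) of 2-fold or more. "Rose" and "fell" are used below only for what passed this test. The 5 arrays of one group all lay beyond the 5 of the other for 431 of the rises (2.1% of all probe sets) and 676 of the falls (3.29%), against 3.21% and 4.2% of all probe sets whether called or not. The median difference over all probe sets was 0.0081 on the log2 scale. Fitted on the 10 arrays alone, the counts were 296 and 491, and with each array centred on its median 1159 rose and 1010 fell, so the balance of rises and falls rests on the scaling. Left out one at a time, Pax3GR replicates 4 and 5 and combination replicates 3 and 5 each lowered the rises to between 527 and 568. Without Pax3GR replicate 1 there were 1451 rises, and without Pax3GR replicate 4 or 5 there were 786 or 811 falls.

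Some of the changes ran across the whole range from background. All 5 Pax3GR arrays lay below log2 4 for 48 of the rises, and all 5 combination arrays lay below it for 96 of the falls. All GR and Zic1GR arrays lay below it for 14 of the rises and 170 of the falls, and for 344 of all 20519 probe sets. These passed the filter on low values only through the Pax3GR and combination arrays. Their absence from the other groups is thus a description that the filter shapes.

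**Figure D1:**
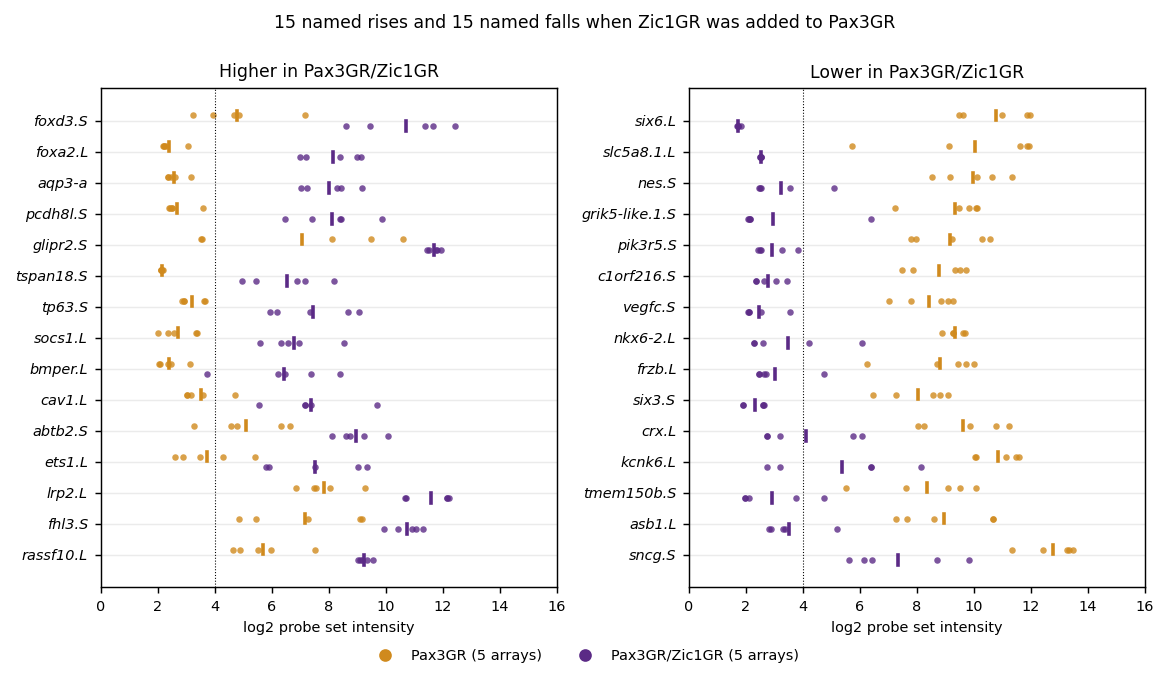
The 15 largest rises (left) and 15 largest falls (right) among named genes whose 5 Pax3GR and 5 combination arrays did not overlap. Each point is 1 array, bars are group means, the x axis is log2 probe set intensity and the dotted line marks log2 4; six6.L lay below 4 on all 5 combination arrays and above 9 on all 5 Pax3GR arrays.

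Neural crest genes were among the rises. Of 41 crest gene copies tested (46 are on the array), 12 rose and 5 fell, with a median difference of 0.269. Over all 8397 named gene copies tested, each by 1 probe set, 4.19% rose and 6.07% fell, with a median of 0.0101. The counts of every list below are to be read beside these shares. The rises held 5 copies of crest transcription factors, foxd3.S, snai2.L, sox8.L, sox9.L and sox9.S, as well as ets1.L and myc.L. Leaving out single arrays left between 10 and 13 rises. Fitted on the 10 arrays alone, 10 crest copies rose and none fell, while at an unadjusted p under 0.05 in the fit on 20 arrays 17 were higher and 8 lower.

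The crest specifier foxd3, a forkhead factor of premigratory crest, showed the largest rise among the 20519 probe sets. In the Pax3GR caps foxd3.S stood at log2 3.24, 7.16, 4.85, 3.94 and 4.70 (replicates 1 to 5, the order used throughout), and in the combination caps at 8.62, 9.46, 12.42, 11.37 and 11.66. Every combination cap lay above every Pax3GR cap, by a mean of 5.93 ± 0.91 (SE) on the log2 scale (adjusted p = 0.000422). With Zic1GR alone its mean was 6.25 and in GR caps it was below log2 4 on all 5 arrays. Its L copy foxd3.L was already at 10.66 ± 0.47 with Pax3GR and stood at 12.17 ± 0.73 with the combination, higher on all 5 arrays, which did not pass the test (adjusted p = 0.159).

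The zinc finger factor snai2 is a classical crest marker that acts in the loss of epithelial adhesion. The levels of snai2.L were 9.50, 10.93, 11.14, 10.10 and 10.59 with Pax3GR and 13.01, 13.06, 13.53, 13.38 and 13.49 with the combination. The groups did not overlap, the combination caps were the more uniform, and the difference was 2.84 ± 0.73 (adjusted p = 0.0186). The related snai1.S was near 13.7 in both, at 13.75 ± 0.29 and 13.89 ± 0.17 (adjusted p = 0.926).

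The SoxE factors, which maintain crest progenitors, rose as well. For sox9.L the Pax3GR caps held 7.13, 8.80, 8.61, 8.07 and 8.00, and the combination caps 9.66, 10.30, 11.44, 10.76 and 11.24, again without overlap (2.56 ± 0.42, adjusted p = 0.000710). The level of sox8.L went from 10.88 ± 0.47 to 12.73 ± 0.30 (adjusted p = 0.00436). The S copy sox9.S rose by 1.39 (adjusted p = 0.0362), a call lost without any one of 8 of the 10 arrays, with an adjusted p of up to 0.0980 (without Pax3GR replicate 5). The 2 arrays whose absence kept it were Pax3GR replicate 2 and combination replicate 1.

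A different course was seen for ets1, an ETS factor that in the embryo marks cranial crest. One ets1.L probe set read 9.50, 9.21, 10.28, 10.47 and 9.45 with Pax3GR and 11.77, 11.99, 13.07, 12.88 and 13.44 with the combination (2.85 ± 0.33, adjusted p = 2.07e-05). GR caps, at 12.35, and Zic1GR caps, at 12.26, were near the combination level. Only the Pax3GR caps were low, and on a second ets1.L probe set they were again lowest, with 3.73 against 7.52 in combination caps (adjusted p = 0.00127), 7.41 with Zic1GR and 8.22 with GR. One more ets1.L probe set differed by 1.66 and did not pass the test (adjusted p = 0.208).

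The other rises included receptors and secreted proteins of crest cells. The growth factor receptor pdgfra.L went from 8.55 ± 1.21 to 11.72 ± 0.36 (adjusted p = 0.00101). The endothelin receptor ednra.S, which acts in facial skeleton formation, went from 6.04 ± 1.07 to 9.49 ± 0.84 (adjusted p = 0.00525). The complement component c3.L, a source of the peptide by which frog crest cells attract one another, went from 12.17 ± 1.02 to 13.91 ± 0.24 (adjusted p = 0.00759). The guidance ligand slit2.S went from 7.83 ± 0.85 to 9.70 ± 0.39 (adjusted p = 0.00293), and myc.L, a factor of crest progenitors, rose by 0.76 to 13.50 ± 0.28 (adjusted p = 0.00327). The metalloproteinase mmp28.L rose by 2.75 (adjusted p = 0.0414), a call lost without Pax3GR replicate 4 or 5, combination replicate 3, 4 or 5 or GR replicate 1, 2, 4 or 5, with an adjusted p of up to 0.120.

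The 5 crest copies that fell were cxcr4.L, mitf.L, mycn.L, pcdh8.L and rhob.S. The chemokine receptor cxcr4.L was at 12.83, 13.19, 13.29, 13.48 and 13.44 with Pax3GR and at 11.66, 11.78, 7.53, 11.46 and 8.53 with the combination. The groups did not overlap, and combination replicates 3 and 5 lay lowest (-3.05 ± 0.67, adjusted p = 0.00667). The pigment cell factor mitf.L fell by 2.66, and 4 of the 5 combination arrays were below log2 4 (adjusted p = 0.0109). None of the 5 falls was called in the fit on 10 arrays (adjusted p of 0.0533 to 0.120), nor were the rises c3.L and mmp28.L (0.0607 and 0.0665). In the fit on 20 arrays the count of falls dropped from 5 to 3 without Pax3GR replicate 3, 4 or 5 and to 2 without combination replicate 3.

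**Figure D2:**
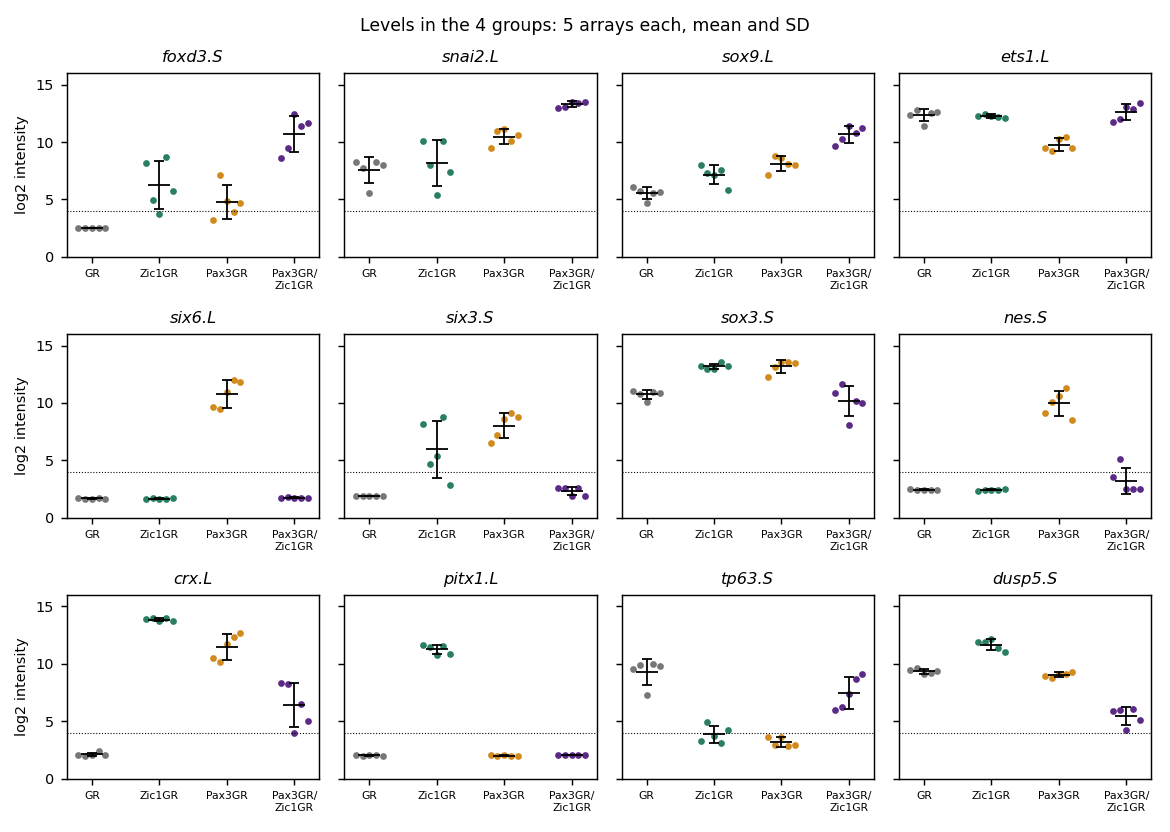
Log2 intensity of 12 genes in the 4 groups. Points are the 5 arrays of a group, bars the mean and SD, and the dotted line marks log2 4. The crest genes foxd3.S, snai2.L and sox9.L are highest in the combination caps, six6.L and nes.S rise above log2 4 with Pax3GR and stay below log2 4 on at least 4 of 5 combination arrays, and pitx1.L is above log2 4 with Zic1GR only.

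The neural plate border list, the class to which pax3 and zic1 belong, held 4 rises and no fall among 24 copies tested (25 on the array; median difference 0.208; 1 was lower at an unadjusted p under 0.05). The AP-2 factor tfap2a.S rose by 0.66 ± 0.16 to 12.67 ± 0.24 (adjusted p = 0.0139), although its groups overlapped. The zinc finger repressor znf703.S rose by 0.82 ± 0.19 to 11.95 ± 0.40 (adjusted p = 0.0105). The other 2 rises were hes4.L (1.5, adjusted p = 0.0243) and tfap2e.L (1.31, adjusted p = 0.0444). Without Pax3GR replicate 4 or 5 or combination replicate 5 the count fell to 2, and each of these arrays took the calls of hes4.L and tfap2e.L away, with an adjusted p of up to 0.0775 and 0.112. The count was 7 without Pax3GR replicate 1, and none of the 4 was called in the fit on 10 arrays (adjusted p of 0.0606 to 0.0944).

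Eye field and forebrain genes were among those that fell. Of 23 copies tested (45 on the array) 9 fell and 1 rose, while the list's median difference was -0.0571. The 9 falls included both copies of six6 and six3, homeobox genes of the eye field, and the L copy of crx. The gene crx is a homeobox gene of photoreceptors and the pineal, and its S copy did not pass the test. Without Pax3GR replicate 4 or 5 the count was 5, and it was also 5 in the fit on 10 arrays. The count of rises was 3 without Pax3GR replicate 1 and 2 without combination replicate 4.

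The largest difference in the data belonged to six6.L. The Pax3GR caps held 9.61, 9.49, 10.98, 11.97 and 11.86, and the combination caps 1.71, 1.84, 1.71, 1.72 and 1.70. All 5 combination arrays were below background, and the message was lower there by at least 110-fold (adjusted p = 2.37e-11). GR caps (1.68) and Zic1GR caps (1.67) were below it too, so the message was above background with Pax3GR and in no other group. It passed the filter on low values only through the Pax3GR arrays, so this profile is a description that the filter shapes. The p-value (limma) uses a spread pooled over all 4 groups. The SD was 1.19 with Pax3GR, against 0.06 in combination, 0.02 in Zic1GR and 0.01 in GR caps, so the p-value does not measure the Pax3GR spread alone. The S copy six6.S went from 9.28 ± 0.73 to 3.28 ± 1.83 (adjusted p = 5.04e-06), with combination replicates 1 and 2 above log2 4 at 4.01 and 6.19.

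For six3.S the levels were 6.47, 7.25, 8.56, 9.08 and 8.81 with Pax3GR and 2.59, 2.60, 1.90, 2.63 and 1.90 with the combination. The combination arrays all lay below background, and the level was at least 16.4-fold lower (adjusted p = 0.000248). Here Zic1GR alone gave 5.96, above the 1.88 of GR caps. The copy six3.L went from 11.87 ± 0.82 to 7.06 ± 3.05 (adjusted p = 0.00834), with the combination caps between 2.70 and 9.43, a call not made in the fit on 10 arrays (adjusted p = 0.0758).

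The level of crx.L was far above that of GR caps with either factor alone, and lower with both. On one of its 2 probe sets it was at 13.85 with Zic1GR and at 2.12 in GR caps. In the Pax3GR caps it stood at 10.48, 10.20, 11.69, 12.31 and 12.71, and in the combination caps at 8.33, 8.28, 4.0, 6.48 and 5.0. These 10 values did not overlap, and the difference was -5.06 ± 0.68 (adjusted p = 9.75e-05). The second crx.L probe set fell by 5.53 (adjusted p = 3.38e-05). The S copy crx.S was near the same level in both groups, at 5.97 with Pax3GR and 6.02 with the combination (adjusted p = 0.971, limma).

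Further falls of the list were otx2.S, an anterior homeobox gene, pax6.L, mab21l1.L and tbx2.S, all with adjusted p between 0.0214 and 0.0285. Each of these 4 calls was lost without Pax3GR replicate 4 or 5 and without at least 1 combination array, with an adjusted p of up to 0.0864. The one rise was ptgds.S, a lipocalin-type prostaglandin D synthase. It stood at 8.53, 8.65, 7.23, 3.1 and 5.99 with Pax3GR and between 9.80 and 10.37 with the combination, a rise of 3.28 ± 0.71 (adjusted p = 0.00628). The combination caps were uniform, the Pax3GR caps were spread, and Zic1GR alone gave 13.20. Without Pax3GR replicate 4 the difference was at its lowest, 2.38, and in the fit on 10 arrays it was not called (adjusted p = 0.0910).

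Pan-neural genes fell too. Of 29 copies tested (46 on the array), 9 fell and none rose, with a median difference of -0.334 (at an unadjusted p under 0.05, 12 were lower and 3 higher). The count stayed between 9 and 11 with single arrays left out, and was 7 on the 10 arrays alone.

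The intermediate filament gene nes.S, whose protein nestin marks neural progenitors, was at 9.16, 10.12, 10.63, 11.32 and 8.54 with Pax3GR. In the combination caps it was at 3.56, 5.09, 2.52, 2.46 and 2.50, below log2 4 on 4 of 5 arrays. The difference was -6.73 ± 0.48 on the log2 scale (adjusted p = 6.59e-08), and -5.74 with intensities below log2 4 set to 4. All GR and Zic1GR arrays lay below log2 4, with means of 2.45 and 2.43. As nes.S passed the filter on low values through the Pax3GR arrays, its profile is a description that the filter shapes. Its p-value (limma) uses a spread pooled over all 4 groups.

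The SoxB1 factors, which hold cells in a neural progenitor state, fell in several copies. For sox3.S the Pax3GR caps held 12.23, 13.14, 13.55, 13.58 and 13.51 and the combination caps 10.85, 11.64, 8.11, 10.20 and 10.03. The ranges were separate, combination replicate 3 was lowest, and the fall was 3.04 ± 0.46 (adjusted p = 0.000326). Its L copy sox3.L lay below log2 4 on all 5 combination arrays and on 1 of 5 Pax3GR arrays, at least 1.57-fold lower (adjusted p = 0.00809). With values below log2 4 set to 4 that call was lost (adjusted p = 0.165). One sox2.L probe set fell by 3.34 ± 0.83, from 12.96 ± 0.88 to 9.62 ± 2.44 (adjusted p = 0.0156), and the other by 5.02 (adjusted p = 0.00274). In the fit on 10 arrays neither sox2.L call was made (adjusted p of 0.120 and 0.0647). The level of sox1.S went from 6.82 ± 1.53 to 3.33 ± 0.72 (adjusted p = 0.000585).

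The remaining pan-neural falls were smaller. The cell adhesion gene ncam1.L fell by 1.62 ± 0.23 (adjusted p = 0.000154), from 6.92 ± 0.25 to 5.31 ± 0.35. The fatty acid binding protein gene of radial glia, fabp7.L, ended below log2 4 on all 5 combination arrays, at least 2.35-fold lower (adjusted p = 4.89e-05). All 5 GR and all 5 Zic1GR arrays lay below log2 4 as well, with means of 2.41 and 2.53. As fabp7.L passed the filter on low values only through the Pax3GR arrays, its profile is a description that the filter shapes. Its p-value (limma) uses a spread pooled over all 4 groups. The axon growth gene dpysl3.S fell by 1.54 (adjusted p = 0.00999), and the RNA-binding protein gene msi1.S by 0.68 (adjusted p = 0.0148, and 0.106 in the fit on 10 arrays). The other copies of ncam1, dpysl3 and msi1 did not pass the test (limma). These were ncam1.S (-0.20, adjusted p = 0.851), dpysl3.L (-0.39, adjusted p = 0.723) and msi1.L (-0.21, adjusted p = 0.367).

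The placode list showed 4 falls and no rise among 24 copies tested (40 on the array; median -0.0114), and at an unadjusted p under 0.05 8 were lower and 2 higher. The falls were irx3.L, which fell by 2.11 from 9.30 ± 1.19 (adjusted p = 0.00993), eya1.L, tbx2.S and pax6.L. For eya1.L both group means were below log2 4, at 3.51 and 2.25, with 3 of 5 Pax3GR and all 5 combination arrays under it, and the call was lost with intensities below log2 4 set to 4 (adjusted p = 0.387). The calls of eya1.L, tbx2.S and pax6.L were each lost without Pax3GR replicate 3 or 4 or combination replicate 3 or 5, with an adjusted p of up to 0.0865. The count was 1 without Pax3GR replicate 3 or 4 or combination replicate 3, and 2 without Pax3GR replicate 5 or combination replicate 5. Without Pax3GR replicate 1, 4 members rose, and in the fit on 10 arrays none of the 4 falls was called (irx3.L adjusted p = 0.0671).

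A set of anterior placode and forebrain genes separated Zic1GR alone from both groups compared here. The homeobox gene pitx1.L, of the anterior placodes and cement gland, averaged 11.25 ± 0.41 with Zic1GR. In the 5 Pax3GR caps it lay between 1.96 and 2.02 and in the 5 combination caps between 2.02 and 2.05. It was thus below background on all 10 arrays. The same held for hesx1.L (9.77 with Zic1GR), hesx1.S (8.26), the proneural factor neurog2.S (9.1) and the forebrain factor fezf2.L (8.18). Among all probe sets, 674 rose with Zic1GR over GR from a control level below log2 4 on all 5 GR arrays. Of these, 132 were below log2 4 on all Pax3GR arrays, 20 of the 132 rose in the combination, and 49 of the 674 (7.27%) were below it on all Pax3GR and all combination arrays. Those 49 passed the filter on low values only through the Zic1GR arrays, so their number is a description that the filter shapes.

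**Figure D3:**
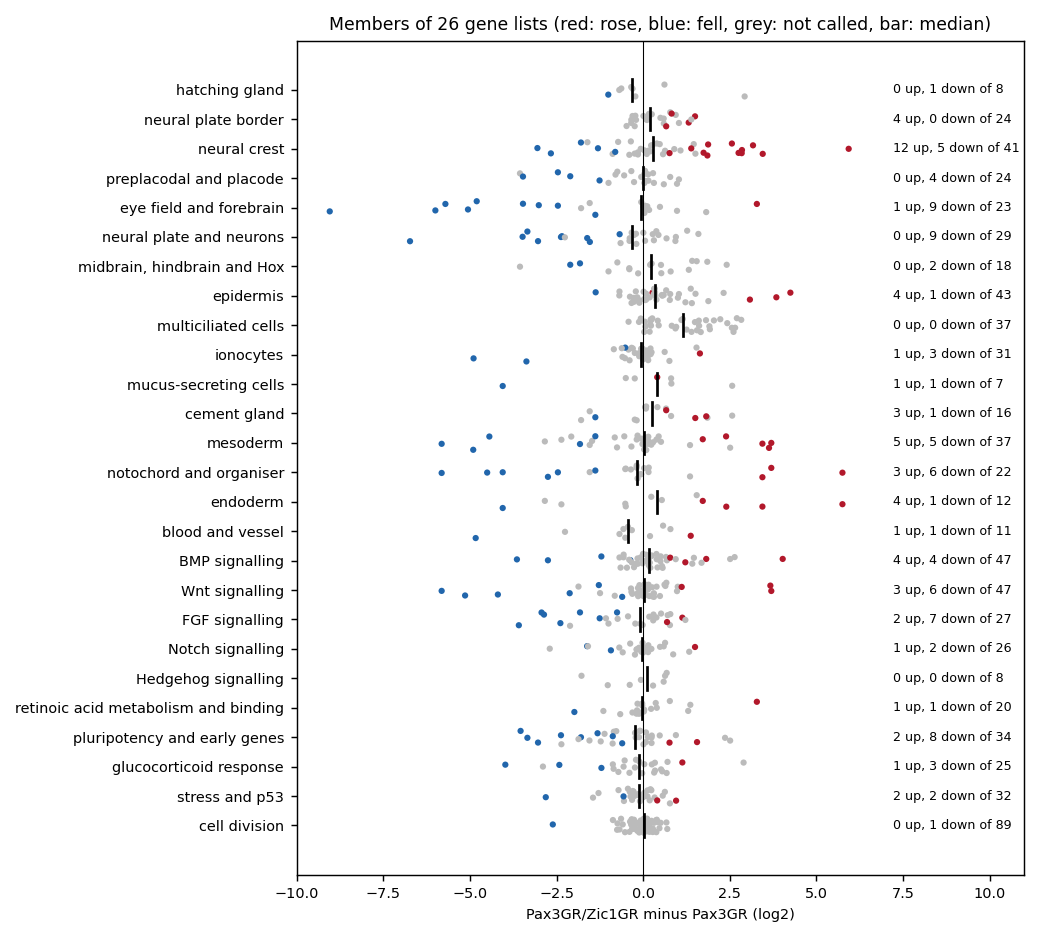
Difference between combination and Pax3GR caps (x axis, log2) for every tested copy in 26 gene lists. Red points rose, blue points fell, grey points did not pass the test, bars are list medians and the counts stand at the right; several lists share members, such as foxa2.L and otx2.S.

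FGF signalling acts through receptor tyrosine kinases and the MAP kinase cascade and takes part in neural and crest induction. Of 27 copies tested (38 on the array), 7 fell and 2 rose (median -0.0828), and 6 to 9 fell with single arrays left out. The falls were the ligand fgf8.L and, for the most part, feedback genes that FGF signalling is known to switch on.

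The MAP kinase phosphatase gene dusp5.S read 8.96, 8.75, 9.09, 9.08 and 9.31 with Pax3GR and 5.91, 6.01, 4.25, 6.02 and 5.07 with the combination. The groups lay far apart relative to their spread (-3.59 ± 0.29, adjusted p = 2.77e-07). Zic1GR alone gave 11.67 and GR 9.35, so the combination was lowest of the 4 groups. The related dusp6.L fell by 1.26 to 10.30 ± 0.43 (adjusted p = 0.00127). Its S copy dusp6.S did not, at 11.06 ± 0.41 with Pax3GR and 11.35 ± 0.37 with the combination (adjusted p = 0.595, limma).

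Sprouty genes encode feedback inhibitors of the same pathway. For spry2.L the levels were 5.98, 7.95, 7.97, 8.49 and 8.57 with Pax3GR and 4.54, 5.95, 3.71, 6.19 and 4.25 with the combination, which overlapped slightly at replicate 1 of Pax3GR (-2.86 ± 0.49, adjusted p = 0.00101). The S copy spry2.S fell by 2.39 (adjusted p = 0.00147), and spry1.S fell to below log2 4 on all 5 combination arrays, at least 2.03-fold lower (adjusted p = 0.0144). For spry1.S, Pax3GR replicates 1 and 2 were also below log2 4, at 2.089 and 3.585, and the groups overlapped. The ligand fgf8.L fell by 1.82 from 13.03 ± 0.47 (adjusted p = 0.0144). In the fit on 10 arrays fgf8.L and spry1.S were not called (adjusted p of 0.108 and 0.0941). The ETS factor etv1.S fell by 0.75 (adjusted p = 0.0250), a call lost without Pax3GR replicate 3, 4 or 5 or combination replicate 3 or 5, with an adjusted p of up to 0.0641. The rises were dusp1.S (1.13) and the adaptor grb2.S (0.69), and without Pax3GR replicate 5 neither was called (adjusted p of up to 0.0605 and 0.0681).

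Among Wnt pathway genes, 6 of 47 copies tested (69 on the array) fell and 3 rose (median 0.0352). These were 12.8% and 6.38%, against 6.07% and 4.19% of all named copies. Secreted modulators moved in both directions. The antagonist frzb.L went from 8.82 ± 1.51 to a level below log2 4 on 4 of 5 combination arrays (-5.82 ± 0.55, adjusted p = 1.92e-06). The modulator dkk2.L was at 9.33, 7.78, 6.84, 8.47 and 6.0 with Pax3GR and between 2.41 and 2.85 with the combination, at least 12.9-fold lower (adjusted p = 1.65e-07). Neither of these probe sets was above background with GR or Zic1GR alone, where both means lay between 2.39 and 2.41. Another frzb probe set, whose symbol carries no L or S suffix, had a different profile. Its mean was 7.96 with Zic1GR alone and 4.03 with GR (adjusted p = 0.000994, limma). Between combination and Pax3GR caps that probe set did not pass the test (0.15, adjusted p = 0.944, limma). As dkk2.L passed the filter on low values only through the Pax3GR arrays, its profile is a description that the filter shapes. The ligand wnt4.L fell by 4.19 (adjusted p = 0.00441, and 0.0841 in the fit on 10 arrays). In contrast the antagonist dkk1.S stood at 5.3, 3.74, 2.17, 2.29 and 2.27 with Pax3GR and at 7.75, 7.83, 6.94, 4.76 and 6.96 with the combination, overlapping only at combination replicate 4 and Pax3GR replicate 1 (3.70 ± 0.68, adjusted p = 0.00177). Its mean was 6.67 in GR caps and 8.38 in Zic1GR caps. Only the Pax3GR caps, at 3.15, were low, and the combination mean of 6.85 was near that of GR caps. The other rises, tcf7.S and dvl1.L, were both lost without Pax3GR replicate 4 or 5 or combination replicate 3, which left 1 rise (adjusted p of up to 0.0639 and 0.0874).

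BMP pathway genes showed 4 rises and 4 falls among 47 copies tested (57 on the array; median 0.169). Each was 8.51% of the list, against 4.19% rises and 6.07% falls over all named copies. The secreted BMP-binding protein gene bmper.L was below log2 4 on all 5 Pax3GR arrays, at a mean of 2.42, and stood at 3.74, 6.21, 7.40, 8.41 and 6.45 with the combination, above log2 4 on 4 of 5. It was at least 5.44-fold higher (adjusted p = 0.000784), and the groups did not overlap, while GR caps had 10.90. The other rises, with adjusted p of 0.0273 to 0.0461, were bambi.L, bmp2.S and bmpr2.S, and the number of rises was 1 without Pax3GR replicate 5 or combination replicate 5, 2 without Pax3GR replicate 4 or combination replicate 1, and 7 without combination replicate 4. Among the falls, the metalloproteinase gene tll2.L, whose family cleaves the BMP antagonist chordin, fell by 3.64 ± 0.30 (adjusted p = 2.7e-07). The BMP-like ligand gene admp.S fell by 2.75 (adjusted p = 0.00371), and id4.S, a target of BMP signalling, by 1.21 (adjusted p = 0.0134). The calls of admp.S and id4.S were not made in the fit on 10 arrays (adjusted p of 0.0718 and 0.0726).

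For the Notch pathway, the ligand dll1.L fell from 10.37 ± 0.38 to 8.75 ± 0.58 (adjusted p = 0.000422) and the feedback inhibitor nrarp.S by 0.93 (adjusted p = 0.00609), 2 falls and 1 rise among 26 copies tested. The falls were 7.69% and the rise 3.85% of the list, near the 6.07% and 4.19% of all named copies. The fall of nrarp.S was not called in the fit on 10 arrays (adjusted p = 0.0691). None of 8 Hedgehog copies passed the test (limma), although 2 were lower at an unadjusted p under 0.05 and 1 was called without Pax3GR replicate 1. Of 20 retinoic acid copies 1 rose and 1 fell (5% each, near the shares of all named copies), the rise being ptgds.S.

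Epidermal genes included the epidermal stem cell factor tp63 among the rises. Of 43 copies tested (45 on the array), 4 rose and 1 fell, with a median of 0.334. On one tp63.S probe set the Pax3GR caps held 3.64, 2.94, 3.66, 2.85 and 2.92 and the combination caps 5.94, 6.2, 7.35, 8.67 and 9.07. All Pax3GR arrays lay below background and all combination arrays above it, at least 10.9-fold higher (adjusted p = 0.000193). Control caps had 9.30 and Zic1GR caps 3.85, so tp63.S was low with either factor alone. A second tp63.S probe set was below log2 4 on average in both groups, with 1.91 and 3.85 (adjusted p = 0.0818). The L copy tp63.L had a mean of 2.28 in Pax3GR caps, 6.13 in combination caps (at least 4.36-fold higher, 4 of 5 arrays above log2 4, adjusted p = 0.00463), 2.30 with Zic1GR and 6.16 with GR. The tight junction gene cldn1.S went from 8.18 ± 1.26 to 11.26 ± 1.33 (adjusted p = 0.00217). The integrin gene itga6.L, of basal epidermal cells, fell by 1.37 (adjusted p = 0.00892). In the fit on 10 arrays neither cldn1.S nor itga6.L was called (adjusted p of 0.0570 and 0.0611). Of 4 rises, epcam.L (0.27, adjusted p = 0.0298) was lost without Pax3GR replicate 4 or 5 or combination replicate 1, 4 or 5 (adjusted p of up to 0.0943).

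The count of epidermal and ciliated cell genes rested on 1 array. Without Pax3GR replicate 1 the epidermal rises went from 4 to 16, and without Pax3GR replicate 2 to 7. For multiciliated cells, which beat on the embryonic skin, none of 37 copies tested (40 on the array) passed the test in either direction (limma; at an unadjusted p under 0.05, 3 were higher and none lower), although 34 of the 37 differences were positive and their median was 1.14. The mean level of those 37 genes on each Pax3GR array was 10.55, 7.82, 5.74, 5.85 and 5.65, and on each combination array 9.46, 8.63, 7.63, 6.32 and 9.36. Pax3GR replicate 1 was highest of the 10 and its replicates 3 to 5 lowest. Without it 16 of the 37 rose, and without it and combination replicate 4 together 23 rose, an alternative chosen after seeing the data. GR caps lay between 11.06 and 12.15 and Zic1GR caps between 6.93 and 9.51 on this measure.

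**Figure D4:**
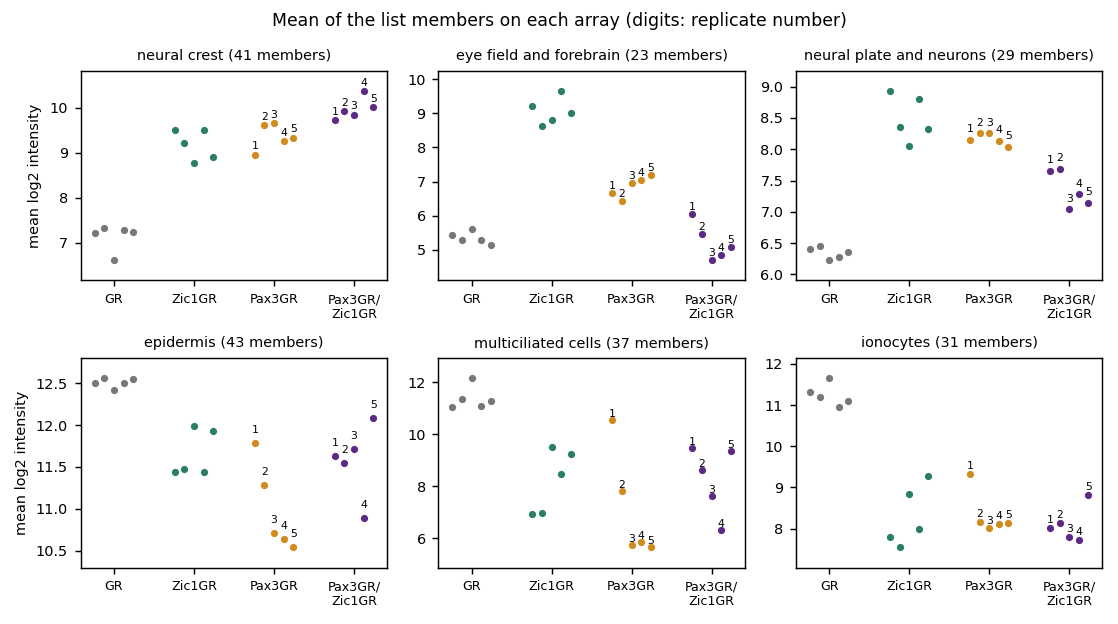
Mean log2 intensity of the tested members of 6 gene lists on each array (y axis, different in each panel), by group, with replicate numbers beside the Pax3GR and combination points. Eye field and neural means of the combination caps lie below all 5 Pax3GR caps, and ciliated cell means of the Pax3GR caps run from 5.65 to 10.55.

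Of 31 ionocyte copies 1 rose (3.23%) and 3 fell (9.68%), against 4.19% and 6.07% of all named copies. The carbonic anhydrase gene ca2.S, of acid-base transport, was at 9.96, 10.41, 10.98, 11.84 and 11.61 with Pax3GR and at 6.14, 9.13, 3.1, 8.70 and 3.26 with the combination. All combination caps were lower, and they were widely spread (-4.90 ± 0.94, adjusted p = 0.00263). The L copy ca2.L fell by 3.37 (adjusted p = 0.0326), a call lost without Pax3GR replicate 3, 4 or 5 or combination replicate 1, 3 or 4 (adjusted p of up to 0.0803). The anion exchanger gene slc4a1.L rose by 1.64 (adjusted p = 0.0130). Neither ca2.S nor slc4a1.L was called in the fit on 10 arrays (adjusted p of 0.0606 and 0.118). The forkhead gene foxa1.S, known from mucus-secreting cells and endoderm, fell by 4.05 ± 0.80 to 4.09 ± 1.30 (adjusted p = 0.00326). The cement gland secretory gene ag1.L rose from 10.76 ± 0.14 to 12.27 (adjusted p = 0.00570, and 0.0842 in the fit on 10 arrays), 1 of 3 rises among 16 copies of its list.

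The hatching gland list, the tissue linked with Pax3, showed 1 fall and no rise among 8 copies tested (13 on the array; at an unadjusted p under 0.05, 2 were lower and 2 higher). The aminopeptidase gene rnpep.L fell by 1.01 to 11.94 ± 0.36 (adjusted p = 0.00297). The astacin protease gene astl3a.1.L stood at 14.66 ± 0.13 with Pax3GR and at 13.97 ± 0.68 with the combination, just beyond the threshold (-0.69 ± 0.22, adjusted p = 0.0511). It was called without combination replicate 1, 2 or 4. With GR and with Zic1GR it was below log2 4 on all 10 arrays.

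Genes of the organiser and of the mesoderm and endoderm, tissues which an uninjected cap does not form, moved in both directions. The GR caps held endoderm list messages as well. The mean of the list was 6.79 to 7.78 on the GR arrays, 5.5 to 6.62 with Pax3GR and 6.21 to 7.2 with the combination. Of 22 organiser copies 3 rose and 6 fell (13.6% and 27.3%), and of 37 mesoderm copies 5 rose and 5 fell (13.5% each). Of 12 endoderm copies 4 rose and 1 fell (33.3% and 8.33%), with members shared between these lists. Over all named copies 4.19% rose and 6.07% fell. The forkhead gene foxa2.L, of the organiser, floor plate and endoderm, was at 3.06, 2.22, 2.29, 2.23 and 2.2 with Pax3GR and at 7.01, 7.2, 9.13, 8.40 and 9.01 with the combination. It went from below background on 5 arrays to well above it on 5, at least 17.8-fold higher (adjusted p = 4.43e-06), while Zic1GR alone gave 3.31. The mesodermal forkhead gene foxf1.S was below log2 4 on all Pax3GR arrays and at least 1.94-fold higher with the combination, where 2 of 5 arrays were also below it (adjusted p = 0.00598). Its call was lost in the fit on 10 arrays (adjusted p = 0.0728) and with values below log2 4 set to 4 (0.0617). The L copy foxf1.L rose by 3.63 (adjusted p = 0.00822).

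Falls of these lists included the notochord homeobox gene not.L, which was at 7.41, 7.29, 7.50, 8.52 and 9.00 with Pax3GR and at 4.83, 6.21, 2.18, 1.99 and 2.01 with the combination (-4.50 ± 0.82, adjusted p = 0.00171). The forkhead gene foxc1.L, of paraxial mesoderm and the periocular region, went from 8.64 ± 1.14 to 3.73 ± 0.79 (adjusted p = 3.09e-05). Both were lower in every combination cap. The rises cer1.S, gata6.L and a2m.S were lost without combination replicate 3 (adjusted p of 0.0528 to 0.0774 at most over all arrays left out), which left 1 endoderm rise and 3 mesoderm rises. Without Pax3GR replicate 4 or 5 there were 2 endoderm rises and 3 mesoderm falls. Mesoderm falls numbered 8 without Pax3GR replicate 1 or combination replicate 2 and 9 without combination replicate 1. In GR caps gata6.L (9.85) and a2m.S (10.74) were near their combination means of 10.28 and 10.79. By contrast cer1.S and foxa2.L lay below log2 4 on all 5 GR arrays. The S copy gata6.S differed in the direction opposite to gata6.L, just beyond the threshold (-2.84, adjusted p = 0.054, limma). It averaged 9.61 with Pax3GR, 6.77 with the combination and 10.18 with GR.

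A vascular ligand gene and a receptor gene of the same family were among the falls. The ligand vegfc.S, a lymphatic and vascular growth factor, was at 7.03, 7.79, 8.85, 9.09 and 9.26 with Pax3GR and at 2.1, 3.54, 2.09, 2.54 and 2.08 with the combination. The level was at least 21.2-fold lower (adjusted p = 4.22e-09). The VEGF receptor gene flt1.L stood at 6.96 ± 0.91 with Pax3GR and below log2 4 on all 5 combination arrays, a fall of at least 7.79-fold (adjusted p = 3.71e-09). Neither gene was above background in GR or Zic1GR caps, with means between 2.04 and 2.07. As vegfc.S and flt1.L passed the filter on low values only through the Pax3GR arrays, their profiles are descriptions that the filter shapes. Their p-values (limma) use a spread pooled over all 4 groups, of which only Pax3GR lay above background. In the blood and vessel list, 1 copy of 11 tested fell, flt1.L, and 1 rose (9.09% each, against 6.07% and 4.19% of all named copies).

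Few cell division genes passed the test. Of 89 copies none rose and 1 fell (limma; 5 fell without Pax3GR replicate 1), with a median difference of 0.0159, and at an unadjusted p under 0.05 6 were higher and 10 lower. The fall was the phosphatase gene cdc25b.L, at least 2.3-fold lower and below log2 4 on all combination arrays (adjusted p = 0.00521), and the call was lost with values below log2 4 set to 4 (adjusted p = 0.0599). Of 32 stress and p53 copies 2 rose and 2 fell (6.25% each). Of 25 copies in the glucocorticoid response list 1 rose (4%) and 3 fell (12%). Over all named copies 4.19% rose and 6.07% fell. All caps received dexamethasone. The largest change there was the fall of nr3c2.L, the mineralocorticoid receptor gene, from 7.11 ± 0.55 to 3.13 ± 0.85 (adjusted p = 1.65e-07). It was below log2 4 on 4 of 5 combination arrays and on all GR and Zic1GR arrays, with means of 2.34 and 2.30. As nr3c2.L passed the filter on low values through the Pax3GR arrays, its profile is a description that the filter shapes. Its p-value (limma) uses a spread pooled over all 4 groups.

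The other largest rises came from several classes. The aquaglyceroporin gene aqp3-a stood at 2.60, 3.17, 2.47, 2.36 and 2.37 with Pax3GR and at 8.28, 7.04, 7.22, 9.16 and 8.42 with the combination, at least 16.3-fold higher (adjusted p = 4.22e-09). The protocadherin gene pcdh8l.S was at least 17.2-fold higher (adjusted p = 1.58e-07). In GR and Zic1GR caps it had means of 2.44 and 2.67, so the combination was the only group with a mean above log2 4. It passed the filter on low values through the combination arrays, so this profile is a description that the filter shapes. The tetraspanin gene tspan18.S was at least 5.8-fold higher (adjusted p = 5.39e-06) and the cytokine signalling suppressor socs1.L at least 6.92-fold (adjusted p = 0.000271). The caveolin gene cav1.L rose by 3.88, the endocytic receptor gene lrp2.L by 3.74 to 11.58 ± 0.81, and rassf10.L by 3.54 to 9.24 ± 0.22.

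The other largest falls came from several classes as well. The monocarboxylate transporter gene slc5a8.1.L was at 9.13, 5.71, 11.84, 11.62 and 11.94 with Pax3GR and below log2 4 on every array with the combination, at least 66.2-fold lower (adjusted p = 1.03e-05). The regulatory subunit gene of a phosphoinositide kinase, pik3r5.S, was at least 35.8-fold lower (adjusted p = 3.89e-08) and c1orf216.S at least 27.5-fold (adjusted p = 4.41e-09). The homeobox gene nkx6-2.L, of the ventral neural tube, fell by 5.85 to 3.49 ± 1.64 (adjusted p = 6.05e-07), and the potassium channel gene kcnk6.L by 5.48 to 5.37 ± 2.30 (adjusted p = 9.75e-05). On the combination arrays nkx6-2.L was below log2 4 on 3 of 5 and kcnk6.L on 2 of 5. In GR and Zic1GR caps all 5 of these genes had means between 2.24 and 2.54. The genes slc5a8.1.L, pik3r5.S and c1orf216.S thus passed the filter on low values through the Pax3GR arrays. Their profiles are descriptions that the filter shapes.

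The difference made by Zic1GR was then compared with and without Pax3GR. Zic1GR caps against GR caps share no array with the pair above, and there 10549 probe sets passed the test (51.4%), 5878 higher (28.6%) and 4671 lower (22.8%). The interaction, the change by Zic1GR with Pax3GR minus the change without it, passed the test for 7510 of 20519 probe sets (36.6%), with 3482 positive (17%) and 4028 negative (19.6%). Of the 878 probe sets that rose when Zic1GR was added to Pax3GR, 385 (43.8%) also rose with Zic1GR alone and 118 (13.4%) fell. Of the 1228 that fell, 316 (25.7%) also fell with Zic1GR alone and 270 (22%) rose. Over all probe sets 28.6% rose with Zic1GR alone and 22.8% fell. Seen from the other side, the 385 shared rises were 6.55% of all Zic1GR rises, against 4.28% rises over all probe sets. The 316 shared falls were 6.77% of its falls, near the 5.98% falls over all probe sets. Across the 20519 probe sets, which are not independent, the differences had a Pearson correlation of -0.0358 and a Spearman correlation of 0.0286.

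**Figure D5:**
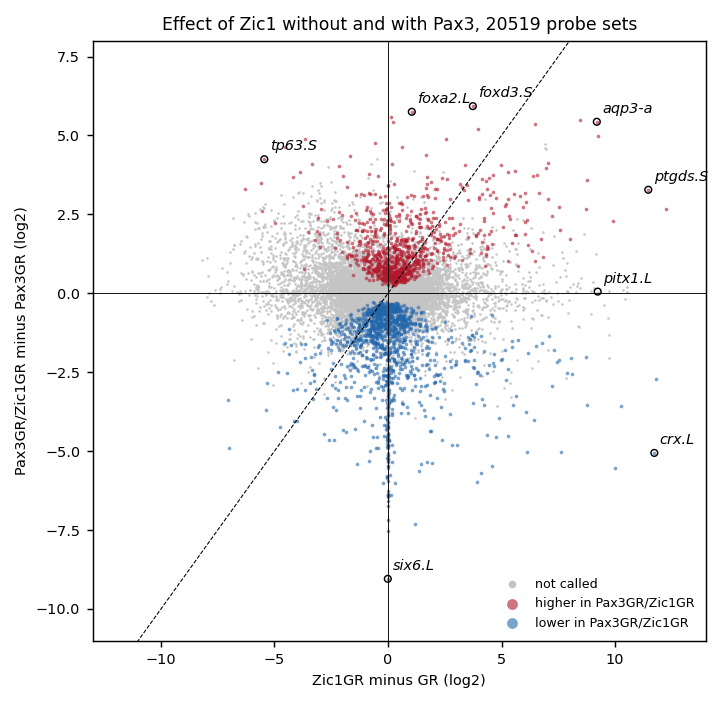
Each point is a probe set, with the difference made by Zic1GR without Pax3GR on the x axis and with it on the y axis (both log2) and equal differences on the dashed line. Red and blue points rose or fell in the combination against Pax3GR; six6.L and foxa2.L lie near 0 on the x axis, and crx.L lies far to the right and below 0. The 878 red and 1228 blue points are those that passed the test.

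Crest rises split by this test. For pdgfra.L Zic1GR alone raised the level by more than it did on top of Pax3GR, an interaction of -3.47 (adjusted p = 0.00233), as for sox8.L (-2.0, adjusted p = 0.00827) and slit2.S (-2.57, adjusted p = 0.00121). For ets1.L the interaction was positive, 2.94 ± 0.46 (adjusted p = 0.000152), with low levels in Pax3GR caps only. For foxd3.S (2.19, adjusted p = 0.194, and 3.46 with adjusted p = 0.0360 when intensities below log2 4 were set to 4), snai2.L (2.22, adjusted p = 0.102), sox9.L (0.94, adjusted p = 0.221) and ednra.S (0.29, adjusted p = 0.847) it did not pass the test. The call of snai2.L changed without Zic1GR replicate 1 or 4 or GR replicate 3, and its interaction then ranged between 1.51 and 2.72 over all arrays left out.

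The most negative interactions among named genes were those of crx.L, ptn.L, crabp2.L, sox2.L and sp5l.S. In GR caps all 5 lay below log2 4 on every array (for sox2.L, on the probe set given), so their sizes rest on intensities under background, and the value with intensities below log2 4 set to 4 is given beside each. For crx.L the interaction was -16.79 ± 0.96 (adjusted p = 6.82e-10; -14.91 so set), with Zic1GR caps above GR caps and combination caps below Pax3GR caps. The growth factor gene ptn.L averaged 14.18 with Zic1GR and 2.37 with GR, and 13.27 ± 0.39 with Pax3GR against 10.57 ± 2.67 with the combination, an interaction of -14.50 (adjusted p = 5.87e-08; -12.88). The retinoic acid binding protein gene crabp2.L had -12.31 (adjusted p = 1.44e-06; -9.99), a sox2.L probe set -11.13 (adjusted p = 1.21e-05; -8.62) and sp5l.S, related to a zinc finger target of Wnt signalling, -10.73 (adjusted p = 8.52e-09; -8.44). Their falls on top of Pax3GR were 2.70 for ptn.L (adjusted p = 0.0431), 3.52 for crabp2.L (adjusted p = 0.0177) and 2.01 for sp5l.S (adjusted p = 0.0198). Those 3 falls were not called without combination replicate 5, with an adjusted p of up to 0.117, 0.0531 and 0.0622. For ptn.L and sp5l.S this was also so without combination replicate 3 or Pax3GR replicate 4, and for ptn.L without 11 other arrays.

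Several FGF feedback and SoxB1 copies had negative interactions as well. Values were -5.91 for dusp5.S (adjusted p = 1.09e-08), -6.73 for spry2.L (adjusted p = 1.29e-06), -7.70 for spry2.S (adjusted p = 4.75e-08), -5.46 for sox3.S (adjusted p = 7.18e-06) and -6.15 for sox3.L (adjusted p = 1.13e-05). In each case Zic1GR caps lay above GR caps, and combination caps below Pax3GR caps. All 5 GR arrays lay below log2 4 for spry2.L and spry2.S, as did all 5 combination arrays for sox3.L. The sizes of those interactions thus rest in part on intensities under background. The FGF phosphatase copies dusp6.S (-0.14, adjusted p = 0.811) and dusp4.S (-0.68, adjusted p = 0.518) did not pass the interaction test, whereas dusp6.L did (-1.68, adjusted p = 0.000639). For pitx1.L only the Zic1GR caps were above background, and the interaction of -9.18 (adjusted p = 3.08e-16) was -7.26 with intensities below log2 4 set to 4. It passed the filter on low values only through the Zic1GR arrays. Its interaction therefore restates the difference of 9.24 between Zic1GR and GR caps and is a description.

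The most positive interactions among named genes were those of tp63.S, cul5.L, glo1.S, odf3.S and cdx2.L, in each of which Zic1GR caps lay below GR caps. For tp63.S it was 9.69 (adjusted p = 2.11e-07), for cul5.L 9.09 (adjusted p = 6.29e-05), for glo1.S 8.64 (adjusted p = 0.000137), for odf3.S 8.40 (adjusted p = 0.0145) and for cdx2.L 8.33 (adjusted p = 5.79e-06). The caudal gene cdx2.L, a factor of posterior identity, was at 2.1 with Zic1GR and 8.88 with GR, and at 9.49 ± 1.62 with Pax3GR and 11.04 ± 0.63 with the combination, a pair that did not pass the test (adjusted p = 0.166; called without Pax3GR replicate 1). The ubiquitin ligase scaffold gene cul5.L rose on top of Pax3GR by 3.49 (adjusted p = 0.0217), a call lost without Pax3GR replicate 5 or combination replicate 3 or 5 (adjusted p of up to 0.0669).

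The L and S copies of a gene gave a partial internal comparison. Both copies were tested for 1415 genes. In 16 of them both rose, in 21 both fell and in 5 the copies moved in opposite directions. For 204 genes only 1 copy passed the test, and in 138 of these the other had a difference of the same sign. In the remaining 1169 neither copy passed. Over all named copies 4.19% rose and 6.07% fell. Closely similar copies can share probes, so the 2 are not independent.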

How the data were processed

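The authors deposited log2 intensities per probe set from Affymetrix Xenopus laevis arrays. GCRMA and Partek are named per the submitters' processing notes, without versions. Of 32635 probe sets 96 were controls. Symbols are those of the array annotation (15495 probe sets with 1 symbol, 279 with several, 16765 with none), 15384 of them checked by identifier. All 20 arrays entered 1 fit in limma 3.58.1 (R 4.3.3), with each group's mean as a coefficient and Benjamini-Hochberg adjustment over 20519 probe sets, and the scripts were tested on simulated data. The number of arrays limits the precision. A fold given as "at least" takes a group whose arrays were all under log2 4 as lying at 4.

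The members and lists were chosen with earlier results of these data known. Named were all pax3 and zic1 probe sets, the 15 largest rises and falls without overlap, up to 3 rises and 3 falls by adjusted p and 1 uncalled member per list, and the 5 largest interactions each way. Other list members, among them snai2.L, sox8.L, six6.S, tp63.L and pitx1.L, were chosen after their values were seen. Lists use 1 probe set per gene copy, that with the highest average intensity. Alternatives covered filters, scaling, variance models, array weights, thresholds, the replicate block and single arrays left out. Same-numbered Pax3GR and combination arrays deviated from their group means with correlations of 0.35, 0.326, 0.0416, 0.466 and -0.0193, so the numbers were not taken to pair samples.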

Additional observations from a re-analysis of the deposited data

Results flagged for a closer look

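Of 356 groups of 5 arrays examined, 25 held an array far from the other 4, where chance gives about 1 in 20. In the Pax3GR group, replicate 1 was lowest for grik5-like.1.S (7.24, the others from 9.46), spry2.L (5.98), etv4.L (13.34), crabp2.L (6.68), mycn.L (9.43), sox3.L (2.69), cxcr4.S (11.54) and the mean of the Wnt list (9.14). It was highest for rfng.L (12.99) and for the means of the ionocyte (9.32, the others from 8 to 8.16) and blood and vessel lists (6.74). Pax3GR replicate 2 was lowest for pax3.L (13.62 on one probe set) and grb2.S (6.84) and highest for fabp7.L (6.75) and slit2.S (9.29). Pax3GR replicate 3 was highest for hspa1l.S (14.84, the others from 14.78 to 14.79).

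In the combination group, replicate 4 was highest for grik5-like.1.S (6.38, the others at or below 2.13) and lowest for slc4a1.L (9.21) and dkk1.S (4.76). Replicate 5 was lowest for zic1.S (13.47 on one probe set) and chrd.1.S (10.98), and replicate 3 for sox8.L (12.19). Replicate 1 was highest for asb1.L (5.18) and pax6.L (6.79, the others at or below 3.03), and replicate 2 for frzb.L (4.74). Pax3GR replicate 1 accounts for 11 of the 25.

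The difference made by Zic1GR was not the same with and without Pax3GR for 49 of 58 probe sets examined (interaction term, limma, adjusted over 20519 probe sets). The 58 include the 5 largest interactions each way and members chosen after their values were seen, so this count is a description, and 36.6% of all 20519 passed the same test. Where a group lay below log2 4, the size rests on intensities under background. The filter on low values was passed by pitx1.L, hesx1.L, hesx1.S, neurog2.S and fezf2.L only through the Zic1GR arrays. For six6.L it was passed only through the Pax3GR arrays. Through these arrays it was also passed by nes.S, vegfc.S, slc5a8.1.L, pik3r5.S and c1orf216.S, whose means in the other groups lay below log2 4. The gene pcdh8l.S passed it through the combination arrays. The interactions of such genes are descriptions that the filter shapes. Positive interactions, on the log2 scale, were 9.69 for tp63.S, 9.09 for cul5.L, 8.64 for glo1.S, 8.4 for odf3.S, 8.33 for cdx2.L, 7.7 for tp63.L, 6.18 for bmper.L, 5.19 for pcdh8l.S, 4.7 for foxa2.L, 4.6 and 2.94 for the ets1.L probe sets, 4 for glipr2.S and 2.7 for tspan18.S. The glipr2.S value (adjusted p = 0.0373) was not called without any one of 13 arrays, with an adjusted p of up to 0.062.

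Negative interactions were -16.79 and -15.55 for crx.L, -14.5 for ptn.L, -12.31 for crabp2.L, -11.13 for sox2.L, -9.8 for six3.S, -9.18 for pitx1.L, -9.04 for six6.L, -8.19 for ptgds.S, -7.91 for hesx1.L, -7.02 for neurog2.S, -6.71 for nes.S, -6.38 for hesx1.S, -6.15 for sox3.L, -6.12 for fezf2.L, -5.83 for nkx6-2.L and -5.46 for sox3.S. Further values were -10.73 (sp5l.S), -7.7 (spry2.S), -6.73 (spry2.L), -5.91 (dusp5.S and vegfc.S) and -5.79 (frzb.L). Others were -3.47 (pdgfra.L), -2.57 (slit2.S) and -2 (sox8.L). The other negative values were -10.03 for asb1.L, -7.52 for slc5a8.1.L, -6.38 for grik5-like.1.S, -6.31 for c1orf216.S, -6.27 for pik3r5.S, -5.47 for kcnk6.L, -5.45 for tmem150b.S, -4.04 for sncg.S, -3.77 for aqp3-a and -2.83 for lrp2.L.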

How the results depend on the processing

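Rises and falls numbered 878 and 1228 on 20 arrays. They were 296 and 491 on the 10 arrays alone, 2359 and 2555 with array weights, 325 and 563 at an adjusted p of 0.01, 57 and 162 when testing against a minimum of log2 1, 374 and 534 with 1 probe set per gene, and 1875 and 1887 without Pax3GR replicate 1 and combination replicate 4 together. Leaving out each array in turn gave 527 to 1451 rises and 786 to 1663 falls. Of 2-fold or more (515 and 815), the counts were in the same order 214 and 394, 1493 and 1387, 243 and 463, 57 and 162, and 193 and 314, with 1329 rises without both arrays and 336 to 936 rises with single arrays left out. For Zic1GR against GR (5878 and 4671), the counts against log2 1 were 1049 and 1248, and with 1 probe set per gene 2610 and 2012. For the interaction (3482 and 4028), they were 1937 and 2301 at 0.01, 840 and 866 against log2 1 and 1480 and 1778 with 1 probe set per gene, and array weights gave 6142 negative. The replicate block gave 813 rises and 1174 falls. It took away 8 named calls, among them bmp2.S (adjusted p = 0.0793), mmp28.L (0.0704), epcam.L (0.0626), ptn.L (0.0584), mycn.L (0.0544) and tfap2e.L (0.0516). No named call changed direction under the alternatives run. The fit on 10 arrays lost 62 named calls, and the cause of the differences between settings was not tested. Folds against a group below log2 4 on all 5 arrays are bounds, since intensities there do not order samples, and log2 differences involving single arrays below it depend on such intensities.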

Other observations

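Genes of early development and pluripotency held 8 falls and 2 rises among 34 copies tested (median -0.226), and 6 to 11 falls with single arrays left out. The falls included the SoxB1 copies described above. The POU factor pou2f1.S fell by 1.32 from 12.36 ± 0.20 (adjusted p = 0.00363, limma), the germ cell kinase mos.L by 0.88 to 7.22 ± 0.39 (adjusted p = 0.00319), and the germ cell RNA-binding protein dazl.L by 3.54, from 8.18 ± 0.43 to 4.64 ± 2.59 (adjusted p = 0.0130). The forkhead gene foxh1.L, a partner of Nodal signalling, rose from 8.87 ± 0.82 to 10.42 ± 0.36 (adjusted p = 0.00413), near the 10.48 of GR caps.

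In the list of midbrain, hindbrain and Hox genes 2 of 18 copies fell, irx3.L and fgf8.L, and none rose (at an unadjusted p under 0.05, 5 were lower and 3 higher), with a median of 0.221. In the stress list the chaperone gene hspa5.L rose by 0.95 (adjusted p = 0.00963) and the p53 target sesn1.L fell by 2.81 (adjusted p = 0.0151). The glucocorticoid target tsc22d3.L fell by 1.21 from 12.59 ± 0.19 (adjusted p = 0.00442).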
